A study of Mus musculus with 9 samples.

Results

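NRF2, encoded by Nfe2l2, its inhibitor KEAP1 and 8 antioxidant and heme genes that NRF2 is known to switch on were followed through 9 libraries. The RNA-seq libraries were made from cells sorted from the lung as mouse pancreatic tumour cells. They also held markers of other cell types, with sums given below. The 10 genes were chosen by name as NRF2, KEAP1 and textbook NRF2 targets, with earlier results of these data known. All 10 were found among the 24012 genes of the deposited table. The cells expressed GFP together with Gstt1-mCherry, the reporter used for sorting, and the label gives the genotype of all 3 groups as SIRT6F/F/p48-Cre/p53F/+KrasL/+, in which the p48-Cre transgene acts in the pancreas. Mice had received the cells by tail vein, and each group held 3 libraries. DTC libraries came from GFP-sorted cells 5 days after injection, numbered 1, 2 and 3. The mCherryHigh and mCherryLow libraries came from cells sorted on the reporter at 6 weeks, numbered 1, 5 and 6 in each group. No label ties libraries to separate mice, so the p-values measure a spread that may be technical. All DTC libraries also carry codes of a separate series in their labels, so for DTC the code series, the time point and the sorting cannot be told apart.

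In unstressed cells KEAP1 holds NRF2 in the cytoplasm and hands it to the CUL3 ubiquitin ligase for destruction. Oxidants and electrophiles modify cysteines of KEAP1, NRF2 builds up, and with a small MAF partner it binds antioxidant response elements in front of genes for quinone reduction, the thioredoxin cycle, glutathione and NADPH supply and heme breakdown. BACH1, which heme removes from DNA, represses many of the same elements, and heme oxygenase 1 is its classic target. Much of this regulation acts on NRF2 protein, so the Nfe2l2 transcript is only one of the places where the pathway can be read.

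The core letters of the binding element were searched for in the start regions of the genes, as a description of their sequence. RefSeq windows from 250 bases before to 50 bases after each start on GRCm38.p6 were matched by symbol for 9 of the 10 members. Hmox1 is the member with no entry. On either strand the core TGACNNNGC stood in 12.4% of 32851 such windows and the variant TGAGNNNGC in 17.6%, and 27.8% held at least one of them. A stricter form, in which that core overlaps TGACTCA (read as TGAGTCA on the other strand), stood in 0.822% of windows. It occurred in Srxn1, Prdx1 and Osgin1. These stretches are shown 5′ to 3′ because they carry the strict form, with the matched core in capitals. The first lies at chr2:152105439-152105515 on the plus strand, the second at chr4:116685426-116685514 on the plus strand and the third at chr8:119437008-119437096 on the plus strand.
Srxn1: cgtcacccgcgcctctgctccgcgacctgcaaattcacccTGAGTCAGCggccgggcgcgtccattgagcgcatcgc
Prdx1: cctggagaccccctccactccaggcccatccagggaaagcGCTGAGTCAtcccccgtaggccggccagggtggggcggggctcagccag
Osgin1: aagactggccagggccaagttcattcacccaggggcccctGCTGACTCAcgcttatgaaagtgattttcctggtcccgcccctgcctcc
The match began 45 bases before the start of Srxn1, 133 before that of Prdx1 and 99 before that of Osgin1. The plain core or its variant also occurred in a window of Nfe2l2, Blvrb and Txnrd1, and in no window of Keap1, Nqo1 or Txn1. A match describes letters in the window and is not evidence of binding, and many NRF2 elements lie farther from the start than these windows reach.

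Expression is given as CPM, the reads of a gene scaled to a common library total. Totals recovered from the table were 923988 to 2052623 reads for DTC, 643748 to 9800173 for mCherryHigh and 2051266 to 11861241 for mCherryLow. The 3 reads that a count of 0 allows come to 4.66 CPM in mCherryHigh 1, the shallowest library, and to 0.253 CPM in mCherryLow 6, the deepest. Some libraries stood apart. DTC 3 had the lowest sum of 12 pancreatic ductal markers, 490 CPM against 5389 and 6116 CPM in DTC 1 and DTC 2, and 1874 to 6148 CPM in the 6 other libraries. mCherryHigh 1 lacked any read for 224 of 9101 genes with a mean of at least 20 CPM, against 4 to 36 genes in each other library. Sums of 16 macrophage markers were 4812, 4029 and 9522 CPM in DTC 1, 2 and 3, and 2770, 814 and 651 CPM in mCherryHigh 1, 5 and 6. They were 4411, 472 and 517 CPM in mCherryLow 1, 5 and 6. C1qb and C1qc were at 0 in all mCherryHigh libraries. Sums of 10 endothelial markers were 229 to 481 CPM in DTC, 36.2 to 59.0 CPM in mCherryHigh and 18.5 to 27.0 CPM in mCherryLow. The part of other cell types in the differences below was not tested, and in such bulk libraries fewer cells of a type and less RNA per cell cannot be told apart.

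In DTC the heme breakdown genes Hmox1 and Blvrb, the thioredoxin reductase gene Txnrd1, the sulfiredoxin gene Srxn1 and Nfe2l2 itself were lower than in both groups taken at 6 weeks, while thioredoxin and KEAP1 transcripts did not pass the test. Of the 10 genes, 5 fell and 0 rose in DTC against mCherryLow (limma on log2(CPM + 1), Benjamini-Hochberg adjusted p under 0.05 over 18701 genes), beside 8.87% of all tested genes called lower and 34.2% called higher. Against mCherryHigh, 6 fell and 0 rose, beside 7.19% of 19700 genes called lower and 23.0% called higher. Both comparisons use the same DTC libraries, so they are not independent of each other. The median difference of the 10 genes was -1.38 against mCherryLow and -1.54 against mCherryHigh on the log2 scale, while the median of all tested genes was 0.59 and 0.55. The all-gene median depends on the filter for low genes. At 5 CPM it was 0.21 and 0.23, with that of the 10 genes unchanged. Without DTC 3 the counts were again 5 and 6. Without DTC 1 they were 4 and 3, the second being the lowest with any library left out. Falls over the whole table were fewer then too, 691 of 15916 genes against mCherryLow and 587 of 18080 against mCherryHigh. With single libraries left out they numbered 691 to 1860 and 587 to 1569, and with all libraries 1659 and 1417.

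**Figure D1:**
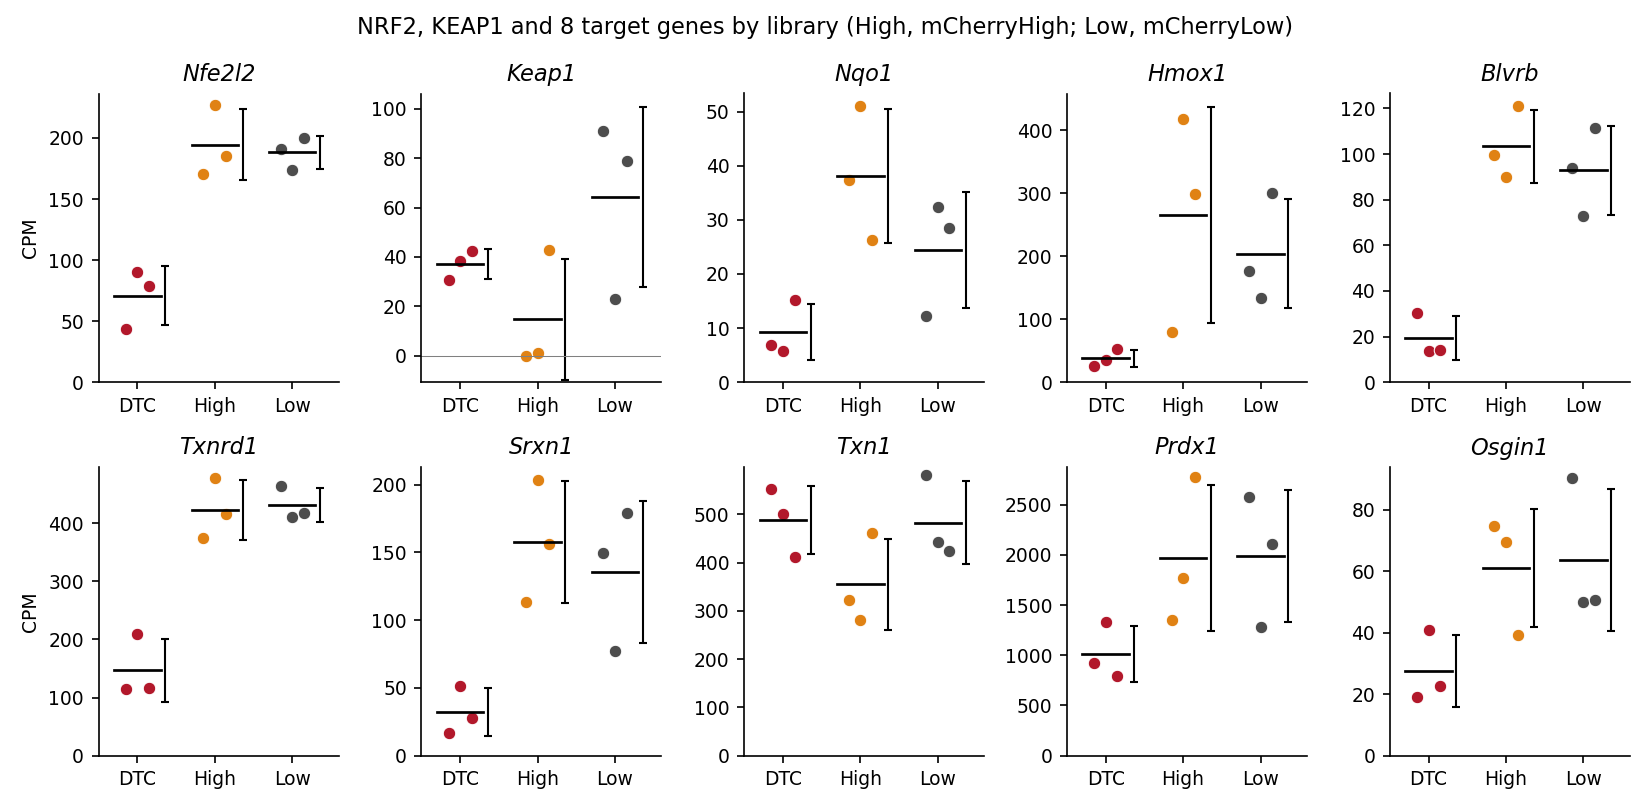
Points give the CPM of each library, with 3 libraries per group, the horizontal line the group mean and the bracket beside it the SD. The DTC points of Nfe2l2, Hmox1, Blvrb, Txnrd1 and Srxn1 lie below every mCherryHigh and mCherryLow point, and those of Txn1 do not.

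Nfe2l2 (ENSMUSG00000015839, chromosome 2) had 43.4, 90.1 and 79.0 CPM in DTC 1, 2 and 3. It had 171, 227 and 186 CPM in mCherryHigh 1, 5 and 6, and 191, 174 and 199.8 CPM in mCherryLow 1, 5 and 6. Every DTC library lay below the other 6, and mCherryHigh and mCherryLow overlapped. The mean was 70.8 ± 24.4 CPM in DTC, 195 ± 29.2 CPM in mCherryHigh and 188 ± 13.3 CPM in mCherryLow (SD, n = 3 each). Nfe2l2 fell in DTC against mCherryLow by 1.46 on the log2 scale (SE 0.37, limma adjusted p = 0.00850), and the difference was -1.50 against mCherryHigh (SE 0.38, limma adjusted p = 0.0148). Both calls were lost without DTC 1, the lowest library, with a limma adjusted p of 0.0576 against mCherryLow and 0.0774 against mCherryHigh. The call against mCherryHigh was also lost without mCherryHigh 5 (0.0557) and after quantile normalization.

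Keap1 (ENSMUSG00000003308, chromosome 9), the adaptor that marks NRF2 for degradation, had 30.4, 38.5 and 42.2 CPM in DTC 1, 2 and 3. In mCherryHigh it had 0 CPM in library 1, 1.12 CPM from 11 reads in library 5 and 42.9 CPM from 420 reads in library 6. In mCherryLow it had 91.2, 22.8 and 78.8 CPM in libraries 1, 5 and 6. The groups overlapped in every comparison. The DTC libraries lay close together, whereas mCherryHigh held both the lowest values and one like those of DTC. The exact Poisson interval of the 0 reads in mCherryHigh 1 reaches 5.73 CPM, below every DTC and mCherryLow value, and such intervals cover counting error only. Keap1, with a mean of 38.7 CPM over the 9 libraries, is among the 224 genes that lacked any read in mCherryHigh 1. The part of that loss in its value of 0 was not tested. Keap1 was -0.57 in DTC relative to mCherryLow (log2, SE 0.52, limma adjusted p = 0.401) and 3.06 relative to mCherryHigh (SE 1.13, limma adjusted p = 0.0613). It passed against mCherryLow without mCherryLow 5 (-1.19, limma adjusted p = 0.0496) and against mCherryHigh without mCherryHigh 6 (4.69, limma adjusted p = 0.00284). Its exons overlap the antisense gene Gm16754, and 92.2% of its 50-base windows are unique. The counting strand is not stated, so reads of the pair cannot be told apart. Gm16754 itself had at most 5.36 CPM, in DTC 2, which does not bound how many of its reads were counted as Keap1.

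Hmox1 and Blvrb, which act in heme breakdown, had the largest falls among the 10 genes. Hmox1 (ENSMUSG00000005413, chromosome 8) encodes the inducible heme oxygenase, which opens heme to biliverdin, iron and carbon monoxide. It had 25.9, 35.1 and 53.0 CPM in DTC 1, 2 and 3, 79.2, 418 and 299 CPM in mCherryHigh 1, 5 and 6, and 177, 134 and 300.2 CPM in mCherryLow 1, 5 and 6. All DTC values were below all others, and mCherryHigh had the widest spread. The mean was 38.0 ± 13.8 CPM in DTC, 265 ± 172 CPM in mCherryHigh and 204 ± 86.2 CPM in mCherryLow (SD, n = 3 each). The difference was -2.37 against mCherryLow (log2, SE 0.42, limma adjusted p = 0.00136) and -2.53 against mCherryHigh (SE 0.58, limma adjusted p = 0.00907). Without DTC 3 it was -2.64 and -2.79.

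Blvrb (ENSMUSG00000040466, chromosome 7) encodes biliverdin reductase B, an NADPH-dependent flavin and biliverdin reductase. It had 30.4, 13.6 and 14.1 CPM in DTC 1, 2 and 3, 99.4, 89.8 and 121 CPM in mCherryHigh 1, 5 and 6, and 94.1, 72.8 and 112 CPM in mCherryLow 1, 5 and 6. The DTC libraries lay far below a range that mCherryHigh and mCherryLow shared. The difference was -2.28 against mCherryLow (log2, SE 0.45, limma adjusted p = 0.00212) and -2.44 against mCherryHigh (SE 0.45, limma adjusted p = 0.00390). Macrophages express Hmox1 too. DTC 1, with a macrophage sum of 4812 CPM, had 25.9 CPM of Hmox1, and mCherryLow 1, with a sum of 4411 CPM, had 177 CPM. DTC 3, with the highest sum of 9522 CPM, had the highest Hmox1 in DTC, 53.0 CPM. mCherryHigh 1, with a sum of 2770 CPM, had the lowest Hmox1 at 6 weeks, 79.2 CPM. mCherryHigh 5, with a sum of 814 CPM, had the highest Hmox1. The 8 erythroid markers in the table summed to 98.9 to 290 CPM in DTC, 5.31 to 43.5 CPM in mCherryHigh and 5.73 to 23.4 CPM in mCherryLow. The part of either cell type in the differences of Hmox1 and Blvrb was not tested.

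**Figure D2:**
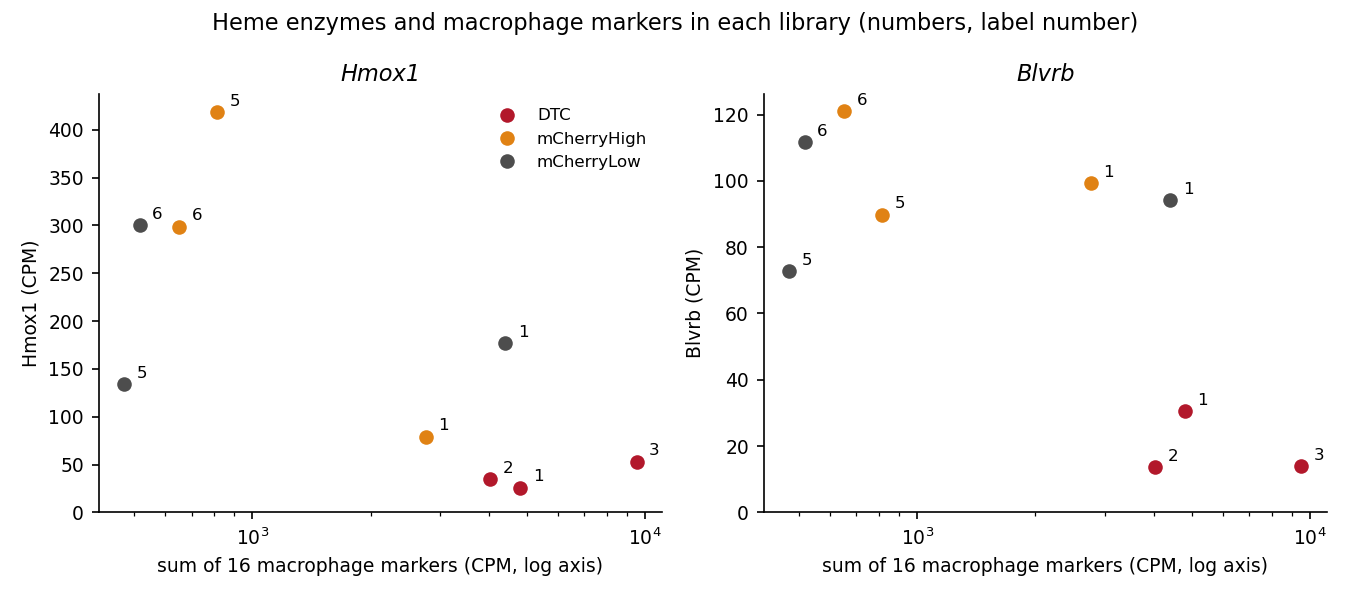
Each point is one of the 9 libraries, with the sum of 16 macrophage markers in CPM on a log axis and the CPM of Hmox1 (left) or Blvrb (right) on a linear axis. DTC libraries combine sums of 4029 to 9522 CPM with the lowest values of both genes, and mCherryLow 1 has a sum of 4411 CPM with 177 CPM of Hmox1. Within DTC, the library with the highest sum, DTC 3, has the highest Hmox1, 53.0 CPM.

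Of 24 other genes of heme synthesis, transport and breakdown, 8 fell and 3 rose in DTC against mCherryLow, with a median of -0.87 (log2), beside 8.87% of all tested genes lower and 34.2% higher. Against mCherryHigh 7 fell and 1 rose, with a median of -0.67, beside 7.19% lower and 23.0% higher. Without DTC 3, and likewise without DTC 1, the counts were 5 lower and 1 higher in both comparisons. The number that fell against mCherryLow was 5 without mCherryLow 1 or mCherryLow 5 too. Without DTC 1, falls over all genes were 691 of 15916 against mCherryLow and 587 of 18080 against mCherryHigh. Blvra, the other biliverdin reductase, had a mean of 71.4 CPM in DTC, 78.0 CPM in mCherryHigh and 133 CPM in mCherryLow and overlapped in both comparisons. It did not pass against mCherryLow (-0.96, limma adjusted p = 0.0969) or mCherryHigh (-0.21, limma adjusted p = 0.741). Alas1, the rate-limiting enzyme of heme synthesis outside red cells, had 37.3, 28.7 and 21.7 CPM in DTC, 97.9, 251 and 250.3 CPM in mCherryHigh and 230.1, 59.8 and 239.6 CPM in mCherryLow. It fell by 2.34 against mCherryLow (limma adjusted p = 0.00445) and the difference was -2.64 against mCherryHigh (limma adjusted p = 0.00316). Slc48a1, which carries heme out of the lysosome, had a mean of 68.6 CPM in DTC, 307 CPM in mCherryHigh and 383 CPM in mCherryLow. It fell by 2.57 against mCherryLow (limma adjusted p = 0.000720) and the difference was -2.21 against mCherryHigh (limma adjusted p = 0.00522). Pgrmc1, a heme-binding membrane protein, fell by 2.22 against mCherryHigh (limma adjusted p = 0.00550).

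Genes that rose on the heme list included Hebp1, a heme-binding protein, with 52.5, 43.4 and 166 CPM in DTC, 1.55, 0 and 0 CPM in mCherryHigh and 1.95, 0 and 0.0843 CPM in mCherryLow. No DTC library overlapped the others. Cd163, the macrophage receptor for haemoglobin bound to haptoglobin, had a mean of 11.8 CPM in DTC, 2.30 CPM in mCherryHigh and 0.163 CPM in mCherryLow. It was called against mCherryLow (limma adjusted p = 0.00106) and did not pass against mCherryHigh (limma adjusted p = 0.0585). Without the DTC libraries, neither Cd163 against mCherryLow nor Hebp1 in either comparison would have met the filter for low genes. Their calls there therefore add nothing to the values. Macrophage sums were higher in DTC on average as well, as given above, and their part in the rises of Hebp1 and Cd163 was not tested. Hmox2, the constitutive heme oxygenase, was picked out after its values were seen. Its differences were -1.23 against mCherryLow and -1.63 against mCherryHigh (log2), smaller in size than those of Hmox1. The call against mCherryLow (limma adjusted p = 0.0452) was lost when any one of 5 libraries was left out, with an adjusted p of up to 0.172. The CPM of Hmox1 over that of Hmox2 was 1.26 to 1.81 in DTC, 1.16 to 5.24 in mCherryHigh and 2.24 to 4.14 in mCherryLow. The log2 difference of that ratio was -1.14 between DTC and mCherryLow, with no overlap (exact two-sided permutation p = 0.1, the smallest that 3 against 3 libraries allow), and it overlapped between DTC and mCherryHigh (exact p = 0.4).

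Txnrd1 and Srxn1, which recycle thioredoxin and peroxiredoxins, fell in both DTC comparisons, while Txn1 and Prdx1 did not pass the test in either. Txnrd1 (ENSMUSG00000020250, chromosome 10) encodes the cytosolic NADPH-dependent reductase that recharges thioredoxin. It had 115, 209 and 116 CPM in DTC 1, 2 and 3, 374, 477 and 415 CPM in mCherryHigh 1, 5 and 6, and 464, 409.7 and 418 CPM in mCherryLow 1, 5 and 6. The DTC libraries were below all others. Txnrd1 fell by 1.60 on the log2 scale against mCherryLow (SE 0.35, limma adjusted p = 0.00353) and the difference was -1.57 against mCherryHigh (SE 0.36, limma adjusted p = 0.00884). Leaving out DTC 1 took the second to a limma adjusted p of 0.0524.

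Txn1 (ENSMUSG00000028367, chromosome 4), the thioredoxin that Txnrd1 reduces, had 552, 502 and 411 CPM in DTC, 323, 280.2 and 461 CPM in mCherryHigh and 582, 442 and 425 CPM in mCherryLow. Every pair of groups overlapped. The difference was 0.02 against mCherryLow (log2, SE 0.32, limma adjusted p = 0.967) and 0.48 against mCherryHigh (SE 0.34, limma adjusted p = 0.300), and its sign against mCherryLow turned under median-of-ratios scaling, edgeR and DESeq2. Within each library, the CPM of Txnrd1 over that of Txn1 was 0.208, 0.417 and 0.282 in DTC, 1.16, 1.70 and 0.901 in mCherryHigh and 0.796, 0.927 and 0.983 in mCherryLow. This ratio does not depend on how libraries are scaled, is not corrected for transcript length and was chosen after the values were seen. Its log2 difference was -1.63 between DTC and mCherryLow and -2.06 between DTC and mCherryHigh, without overlap (exact two-sided permutation p = 0.1 each, the smallest possible).

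Srxn1 (ENSMUSG00000032802, chromosome 2) encodes sulfiredoxin, which repairs overoxidised peroxiredoxins. It had 16.7, 51.2 and 28.1 CPM in DTC, 113, 203 and 156 CPM in mCherryHigh and 149, 77.3 and 179 CPM in mCherryLow. No DTC library reached the lowest of the others. Srxn1, one of the genes printed above with the strict element, fell by 2.10 against mCherryLow (log2, SE 0.49, limma adjusted p = 0.00510) and the difference was -2.36 against mCherryHigh (SE 0.47, limma adjusted p = 0.00504). Prdx1 (ENSMUSG00000028691, chromosome 4), a peroxiredoxin that sulfiredoxin repairs, had 919, 1329.5 and 789 CPM in DTC, 1356, 1773 and 2774 CPM in mCherryHigh and 2577, 1284 and 2113 CPM in mCherryLow. DTC 2 lay above mCherryLow 5 and just under mCherryHigh 1. Prdx1 was -0.95 against mCherryLow (SE 0.37, limma adjusted p = 0.0576) and -0.93 against mCherryHigh (SE 0.38, limma adjusted p = 0.0881), neither past the threshold. It did pass against mCherryLow without DTC 2 (0.0271) or mCherryLow 5 (0.0474), and in both comparisons with edgeR on the recovered reads (-1.49, adjusted p = 0.0175, and -1.41, adjusted p = 0.0481). Shared sequence limits the count of this gene, since 91.2% of its 50-base windows are unique and the rest occur in transcripts of 75 other genes. The CPM of Srxn1 over that of Prdx1 was 0.0182 to 0.0385 in DTC, 0.0563 to 0.115 in mCherryHigh and 0.0579 to 0.0848 in mCherryLow, with no overlap of DTC and either other group (exact two-sided permutation p = 0.1 each, the smallest possible). This ratio too was chosen after the values were seen.

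**Figure D3:**
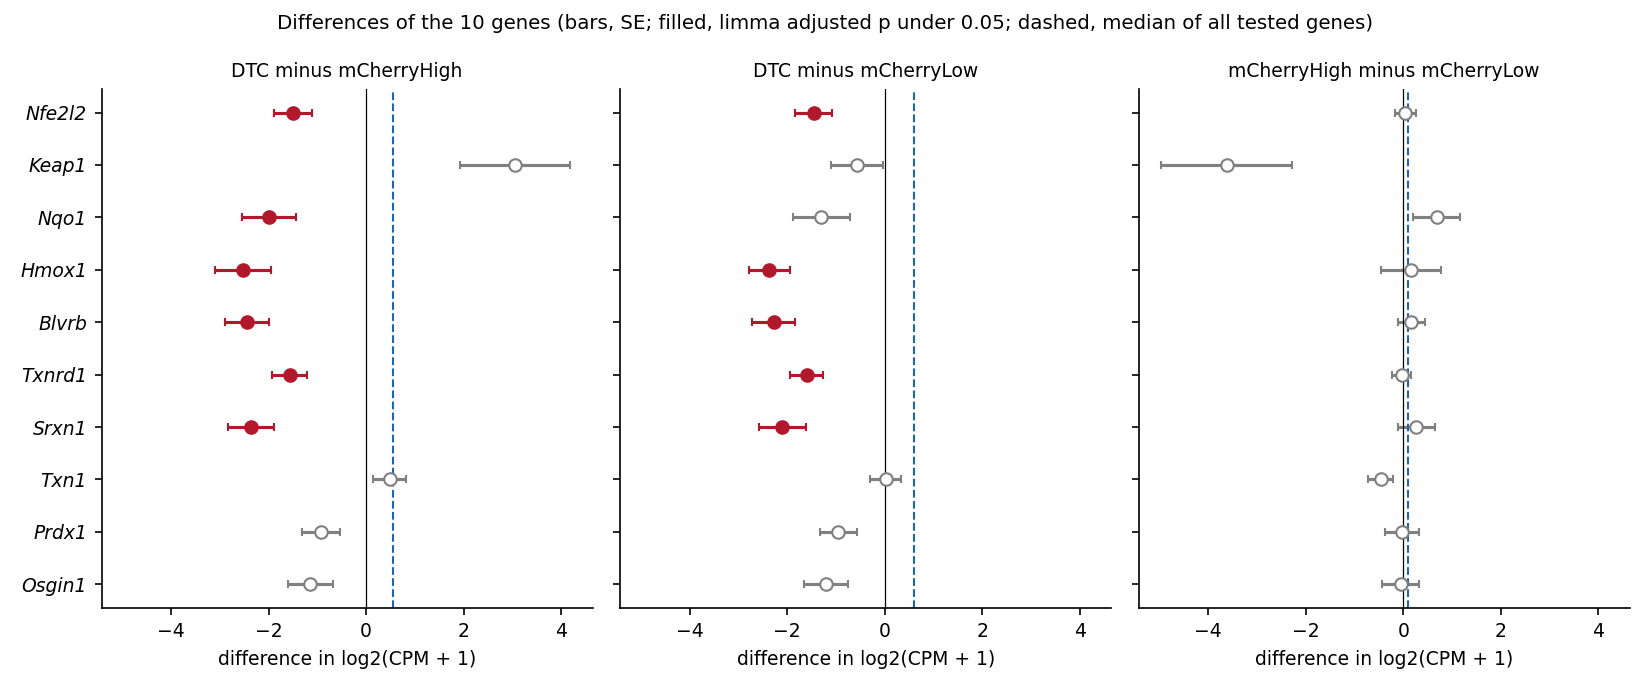
Differences in log2(CPM + 1) for the 10 genes in the 3 comparisons, with bars of 1 SE, filled where the limma adjusted p is under 0.05, and a dashed line at the median of all tested genes. Hmox1, Blvrb and Srxn1 lie between -2.53 and -2.10 in both DTC comparisons, and no gene is filled for mCherryHigh minus mCherryLow.

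The thioredoxin and peroxiredoxin list held 24 other genes, with glutaredoxins, methionine sulfoxide reductases, sestrins and superoxide dismutases among them. Of the 24, 5 fell and 2 rose in DTC against mCherryLow (median -0.63), beside 8.87% of all genes lower and 34.2% higher. Against mCherryHigh 2 fell and 1 rose (median -0.25), beside 7.19% and 23.0%, so the share that fell there was near that of all genes. Without DTC 3, 4 fell and 0 rose in both, and without DTC 1, 2 fell and 0 rose in both. Falls over all genes without DTC 1 were 691 of 15916 against mCherryLow and 587 of 18080 against mCherryHigh. Leaving out a mCherryLow library gave 2 or 3 that fell, and leaving out mCherryHigh 1 gave 5. Prdx5, a peroxiredoxin of mitochondria and peroxisomes, had a mean of 169 ± 59.0 CPM in DTC, 624 ± 91.0 CPM in mCherryHigh and 644 ± 73.2 CPM in mCherryLow (SD, n = 3 each). It fell by 1.97 against mCherryLow (limma adjusted p = 0.00124) and the difference was -1.92 against mCherryHigh (limma adjusted p = 0.00398). Prdx4, the endoplasmic reticulum peroxiredoxin, had differences of -1.72 against mCherryLow and -1.80 against mCherryHigh, both past the threshold. Txnrd2, the mitochondrial thioredoxin reductase, and the glutaredoxin Glrx had differences of -1.50 and -1.76 against mCherryLow, both past the threshold. Txnrd2 was no longer called without DTC 1, DTC 3 or any mCherryLow library (adjusted p up to 0.168), nor Glrx without DTC 1 or mCherryLow 6 (up to 0.0572). Glrx missed the threshold against mCherryHigh (limma adjusted p = 0.0501). Msrb2, a mitochondrial methionine sulfoxide reductase, rose by 2.37 against mCherryHigh (limma adjusted p = 0.0401) from low levels, with a mean of 12.2 CPM in DTC and 1.43 CPM in mCherryHigh. It was lost with any library left out and passed in only 2 of 16 alternatives (adjusted p up to 0.444).

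Nqo1 (ENSMUSG00000003849, chromosome 8) encodes the quinone reductase that is the most used readout of NRF2. It had 6.85, 5.85 and 15.2 CPM in DTC 1, 2 and 3, from 9, 12 and 14 reads, so counting error alone is wide there. It had 37.3, 51.0 and 26.3 CPM in mCherryHigh 1, 5 and 6, and 12.2, 32.4 and 28.6 CPM in mCherryLow 1, 5 and 6. DTC lay below every mCherryHigh library, and DTC 3 lay above mCherryLow 1. Nqo1 fell by 1.99 against mCherryHigh (log2, SE 0.56, limma adjusted p = 0.0216) and was -1.30 against mCherryLow (SE 0.59, limma adjusted p = 0.0932). The call against mCherryHigh was lost without DTC 1 (limma adjusted p = 0.0815), without DTC 2 (0.0564), without mCherryHigh 5 (0.0960) and on reads thinned to the shallowest library (0.0578). Osgin1 (ENSMUSG00000074063, chromosome 8), an oxidative stress-induced growth inhibitor, had 19.0, 40.9 and 22.7 CPM in DTC, 74.6, 69.6 and 39.2 CPM in mCherryHigh and 90.2, 50.1 and 50.5 CPM in mCherryLow. DTC did not overlap mCherryLow, and DTC 2 lay above mCherryHigh 6. Osgin1 was -1.20 against mCherryLow (SE 0.45, limma adjusted p = 0.0505) and -1.14 against mCherryHigh (SE 0.47, limma adjusted p = 0.0863). It passed against mCherryLow without DTC 2 (0.0330), and in both comparisons with edgeR (-1.70, adjusted p = 0.0159, and -1.54, adjusted p = 0.0395). In all, DTC lay wholly below mCherryLow for 6 of the 10 genes, beside 14.2% of all tested genes, and wholly above for 0, beside 39.0%. It lay wholly below mCherryHigh for 7, beside 13.2%, and wholly above for 0, beside 31.4%.

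Other known NRF2 targets that passed the test were mostly lower in DTC. Of 28 tested against mCherryLow, 13 fell, 2 rose and 13 did not pass (median -1.13), beside 8.87% of all genes lower and 34.2% higher. Of 29 tested against mCherryHigh, 13 fell, 1 rose and 15 did not pass (median -1.17), beside 7.19% lower and 23.0% higher. Without DTC 3, 11 fell and 1 rose in both. The lowest counts with a library left out were 7 without mCherryLow 1 and 8 without DTC 1 against mCherryLow, and 7 without DTC 1 or mCherryHigh 6 against mCherryHigh. Falls over all genes were then 1073 of 18253 and 691 of 15916 against mCherryLow. They were 587 of 18080 and 858 of 19320 against mCherryHigh. Enzymes of the pentose phosphate pathway, which supplies NADPH to the thioredoxin and quinone reductases, were among the targets that fell. G6pdx, its first enzyme, had 32.0, 55.5 and 24.9 CPM in DTC, 141, 175 and 156 CPM in mCherryHigh and 183, 205 and 256 CPM in mCherryLow. It fell by 2.55 against mCherryLow (limma adjusted p = 0.000712) and the difference was -2.12 against mCherryHigh (limma adjusted p = 0.00434). Taldo1, the transaldolase, fell by 1.77 against mCherryLow. Pgd, the phosphogluconate dehydrogenase, fell by 1.62 against mCherryHigh. Catalase, Cat, fell by 1.72 against mCherryLow. The epoxide hydrolase Ephx1 fell by 1.80 against mCherryLow and the difference was -2.43 against mCherryHigh, and the aldehyde dehydrogenase Aldh3a1 fell by 2.76 against mCherryHigh.

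Ferritin was looked at after its values were seen. Fth1, the heavy chain that oxidises iron for storage, had 2052, 1740 and 3820 CPM in DTC, 4565, 7016 and 7453 CPM in mCherryHigh and 7802, 6319 and 6916 CPM in mCherryLow. Ftl1, the light chain, went the other way, with 2297, 2147 and 4818 CPM in DTC, 972, 1288 and 897 CPM in mCherryHigh and 1337, 1351 and 1315 CPM in mCherryLow. Against mCherryLow, Fth1 fell by 1.55 (limma adjusted p = 0.00737) and Ftl1 was 1.11 higher (limma adjusted p = 0.0332), a rise that edgeR and DESeq2 did not call and that was lost without DTC 1 or any mCherryLow library (adjusted p up to 0.221). The fall of Fth1 was lost without DTC 1, mCherryLow 1 or mCherryLow 6 (up to 0.0999). Ftl1 has near-identical copies, so its count is uncertain. DTC 3, with the highest macrophage sum, had the highest value of both chains in DTC.

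**Figure D4:**
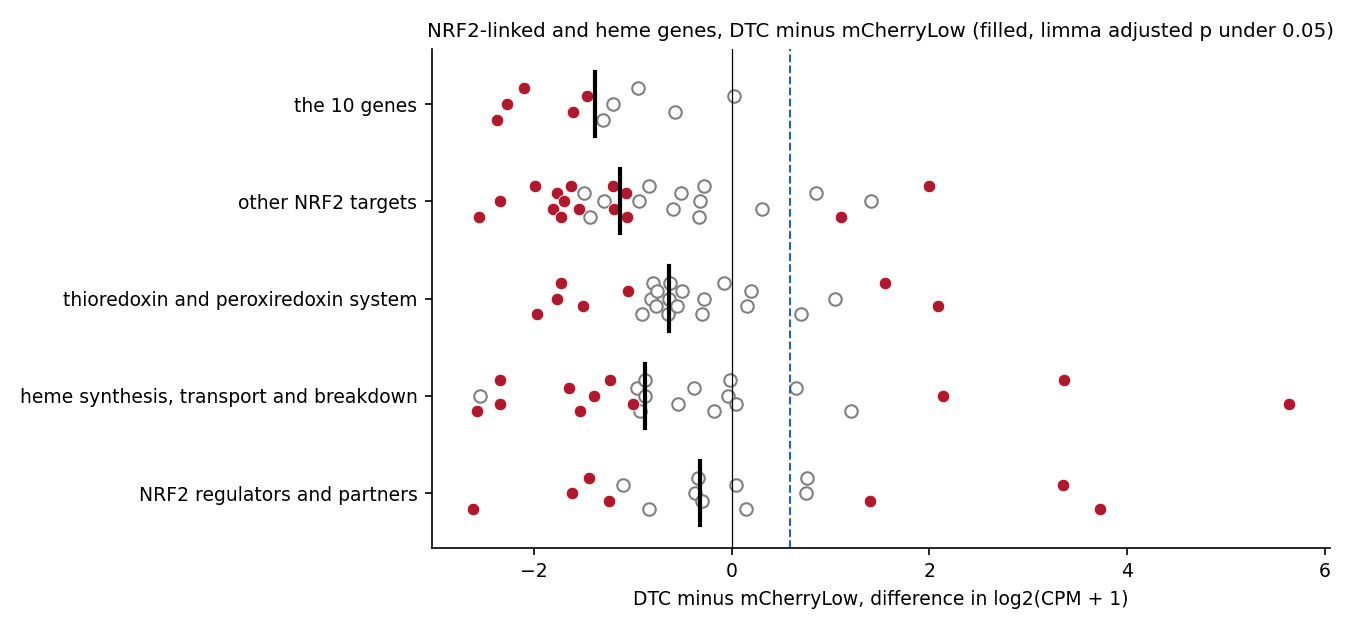
Each point is a gene of the 10 or of the 4 related lists, placed by its difference in log2(CPM + 1) between DTC and mCherryLow and filled where the limma adjusted p is under 0.05, with a bar at the list's median and a dashed line at the median of all tested genes. The list medians run from -1.38 to -0.32, and that of all genes is 0.59.

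Of 16 regulators and partners of NRF2, 4 fell and 3 rose in DTC against mCherryLow (median -0.32), beside 8.87% of all genes lower and 34.2% higher. Against mCherryHigh 2 fell and 2 rose (median -0.26), beside 7.19% lower and 23.0% higher. Without DTC 3, 2 fell and 2 rose against mCherryLow, and 4 fell and 1 rose against mCherryHigh. Without DTC 1 or mCherryLow 1, 2 fell against mCherryLow, beside falls of 691 of 15916 and 1073 of 18253 genes. Sqstm1, encoding p62, which takes KEAP1 into autophagy and is itself an NRF2 target, had 274, 430.2 and 262 CPM in DTC, 590.3, 3128 and 2787 CPM in mCherryHigh and 2138, 1290 and 2617 CPM in mCherryLow. It fell by 2.62 against mCherryLow (limma adjusted p = 0.000534) and the difference was -2.46 against mCherryHigh (limma adjusted p = 0.00966). Nfe2l1, the related factor NRF1, fell by 1.62 against mCherryLow, and the difference was -1.82 against mCherryHigh. Bach2, a repressor of the same elements known from lymphocytes, had 53.3, 52.1 and 123 CPM in DTC, 7.77, 5.82 and 8.28 CPM in mCherryHigh and 2.44, 3.57 and 8.85 CPM in mCherryLow. It rose by 3.73 (limma adjusted p = 0.000720 against mCherryLow) and 3.11 (limma adjusted p = 0.00270 against mCherryHigh). Nfe2, the blood lineage relative of NRF2, rose by 3.35 and 3.34, and it was highest in DTC 3 at 58.4 CPM. The rise of Nfe2 was lost after quantile normalization, and without DTC 3 against mCherryHigh (adjusted p up to 0.0909). Bach1, picked out after its values were seen, had a mean of 40.5 CPM in DTC, 14.7 CPM in mCherryHigh and 14.3 CPM in mCherryLow. It rose by 1.40 against mCherryLow (limma adjusted p = 0.0419) and did not pass against mCherryHigh (1.35, limma adjusted p = 0.0694). Sums of 9 T and NK cell markers were 76.5 to 319 CPM in DTC, 11.4 to 18.6 CPM in mCherryHigh and 9.11 to 21.1 CPM in mCherryLow. Those of 10 neutrophil markers were 86.0 to 165 CPM in DTC, 18.9 to 27.4 CPM in mCherryHigh and 4.79 to 18.0 CPM in mCherryLow. Erythroid sums, given above, were higher in DTC too. The part of any of these cell types in the rise of Bach2 and Nfe2 was not tested.

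Between mCherryHigh and mCherryLow, none of the 10 genes passed the test, and all 10 overlapped between the groups. Over all 15437 genes, limma and edgeR called 0% at the adjusted threshold, 1448 genes had an unadjusted limma p under 0.05, and DESeq2 called 148 genes, none of them a member. mCherryHigh lay wholly above mCherryLow for 10.2% of all genes and wholly below for 5.78%. Differences of Nfe2l2, Hmox1, Blvrb, Txnrd1, Srxn1, Prdx1 and Osgin1 ran from -0.05 to 0.27 on the log2 scale. Keap1 had the largest, -3.63 (SE 1.34, unadjusted p = 0.0283, limma adjusted p = 0.497), and it was the only one of the 10 with an unadjusted p under 0.05. Within the code series shared by mCherryHigh 1 and mCherryLow 1 it had 0 against 91.2 CPM. In that of mCherryHigh 5, mCherryLow 5 and mCherryLow 6 it had 1.12 against 22.8 and 78.8 CPM. mCherryHigh 6, alone in its series, had 42.9 CPM. The totals were 643748 reads in mCherryHigh 1, 9800173 in mCherryHigh 5 and 9779098 in mCherryHigh 6. mCherryHigh 1 also lacked reads for more genes than any other library. The part of depth or of such missing genes in the low Keap1 values was not tested.

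Nqo1 was 0.69 higher in mCherryHigh (SE 0.48, limma adjusted p = 0.695). Within code series it had 37.3 against 12.2 CPM in the first, and 51.0 against 32.4 and 28.6 CPM in the second, while mCherryHigh 6 had 26.3 CPM. With the series as a term the difference was 1.07 (SE 0.52, limma adjusted p = 0.838). Txn1 was -0.46 (SE 0.25, limma adjusted p = 0.611). Hmox1 gave no single direction within series, with 79.2 against 177 CPM in the first and 418 against 134 and 300.2 CPM in the second.

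With limma and with edgeR none of the genes on the 4 related lists passed between mCherryHigh and mCherryLow, 1 or 2 genes a list had an unadjusted limma p under 0.05, and DESeq2 called 1 gene, Msrb2, lower. The list medians were -0.10 to 0.13. Those with the smallest p included Aldh3a1, with a mean of 73.8 ± 15.8 CPM in mCherryHigh and 32.3 ± 17.8 CPM in mCherryLow (SD, n = 3 each). Its difference was 1.27 (SE 0.42, limma adjusted p = 0.486), without overlap. Ephx1 (0.63) and Gsta4, a glutathione transferase (1.06), were likewise higher in every mCherryHigh library, and G6pdx (-0.43) was lower in every one. Msrb2 had the lowest difference of those named, -2.45 (SE 0.67, limma adjusted p = 0.444), with 1.43 CPM in mCherryHigh and 11.7 CPM in mCherryLow on average. Alad, the second enzyme of heme synthesis, was -0.76, Ppox, a late one, was 0.81, and Blvra was -0.74. Among regulators, Dpp3, which binds KEAP1, was -0.67 and Cul3, the ligase scaffold, was -0.72.

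The genes whose pattern over the 9 libraries was most like that of 3 members were ranked by Pearson's r of log2(CPM + 1) among 10509 genes with a mean of at least 10 CPM. These values describe libraries that share groups and code series, and carry no test. For Nfe2l2 they were Elovl5 (0.996), a fatty acid elongase, Pnkd (0.991) and Plod3 (0.989), a lysyl hydroxylase. For Hmox1 they were Klc4 (0.991), Tcn2 (0.990), which carries vitamin B12, and Zswim4 (0.990). For Nqo1 they were Cd63-ps (0.976), the copper importer Slc31a1 (0.968) and the lysosomal protease Ctsa (0.964). Plod3, as an example, had a mean of 56.5 CPM in DTC, 250.2 CPM in mCherryHigh and 229 CPM in mCherryLow.

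**Figure D5:**
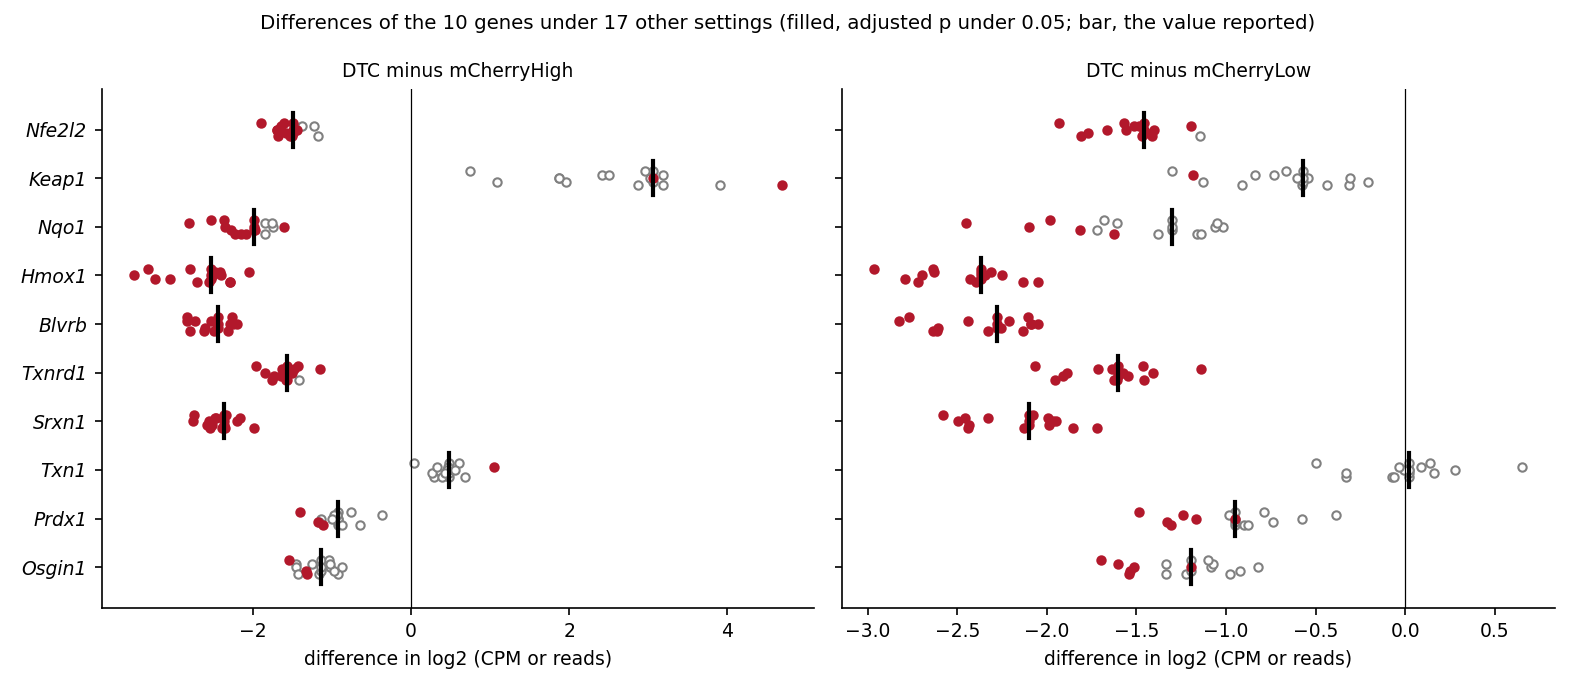
Each point is the difference of a gene under one of 17 other settings, filled where its adjusted p is under 0.05, and the bar is the value reported in the text. Every point of Hmox1, Blvrb and Srxn1 is filled and below 0 in both panels, while those of Txn1 against mCherryLow fall on both sides of 0.

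The falls of Hmox1, Blvrb and Srxn1 in both DTC comparisons, and that of Txnrd1 against mCherryLow, passed the threshold under all 17 alternatives run. Hmox1 ranged from -2.96 to -2.05 against mCherryLow and from -3.51 to -2.05 against mCherryHigh. How the libraries are put on one scale bears on the whole table here, because DTC calls were mostly rises. Of all genes called between DTC and mCherryLow, 79.4% were higher in DTC, against 52.7% after quantile normalization, 65.2% with median-of-ratios scaling and 59.6% with edgeR. Between DTC and mCherryHigh the share was 76.2%, against 51.3%, 67.8% and 58.4%. The median over all genes shifted with it, to -0.14 after quantile normalization against mCherryLow, and the medians of the 4 lists were below that of all genes in every one of these scalings for mCherryLow. For mCherryHigh that held except for the regulators after quantile normalization, 0.02 against -0.10. The predicted gene Gm10800 took 1.57% to 9.14% of reads in DTC and 0.0614% to 0.231% in the other libraries.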

How the data were processed

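The RNAqueous-Micro, SMART-seq v4 and Nextera XT kits gave RNA, cDNA and libraries, per the labels' protocols. Reads were mapped to mm9, per the submitters' processing notes. Aligner, counter and strand setting were not given in the sources used here. What the authors deposited is a table of CPM, in which each library is scaled to one total, with 24012 genes and 9 libraries. All values were whole multiples of 1 read within 0.01 read, so reads and totals were recovered from the CPM.

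Each comparison kept genes that reached 1 CPM in 3 or more of its 6 libraries. The two-sided test was limma 3.58.1 (R 4.3.3) with the trend option, on log2(CPM + 1), with group as the only term. A fold change on this scale understates that of low genes. P-values were adjusted by Benjamini-Hochberg over all tested genes, with a threshold of 0.05. Ratios within libraries were tested by an exact permutation test. Poisson intervals are 95% and cover counting error only. The procedure was tested on simulated data.

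The 10 members and all lists were chosen with earlier results of these data known. Named list genes are the 4 of smallest limma p per list and comparison. Genes said to be picked after their values were seen stand outside that rule. Alternatives were pseudocounts of 0.25 and 5, no filter and 5 CPM, quantile and median-of-ratios scaling, one fit of all 9 libraries, count tests of those reads by edgeR 4.0.16 and by DESeq2 1.42.0, reads thinned to the lowest total, leaving out each library and, for mCherryHigh with mCherryLow, the label number or code series as a term. Leaving out DTC 3, mCherryHigh 1 and mCherryLow 1 together was chosen after seeing the data. Unique windows and chromosomes come from a GENCODE annotation of GRCm38, a later build than mm9, so no mm9 coordinates are given.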

Additional observations from a re-analysis of the deposited data

How the results depend on the processing

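Nqo1 in DTC rests on 9 to 14 reads a library, which limits its precision. Of all genes, DESeq2 called 148 between mCherryHigh and mCherryLow, where limma called 0. Between DTC and mCherryLow limma called 8064, against 4300 after quantile normalization, 3646 without DTC 3, mCherryHigh 1 and mCherryLow 1, and 3628 to 7008 when single libraries were left out (4387 without DTC 3, 3628 without DTC 1). Between DTC and mCherryHigh it called 5949, against 3150 after quantile normalization and 2538 to 6997 with single libraries left out (3265 without DTC 3). Of the 10 genes, 8 fell against mCherryLow with median-of-ratios scaling, 8 with edgeR and 8 with DESeq2. Falls over all 18701 genes rose as well, to 3014, 3095 and 2945, from 1659 in the main test. With single libraries left out, 4 to 7 of the 10 were called. Against mCherryHigh 3 to 7 were called so, with 3 without DTC 1. The 7, without mCherryHigh 6, were 6 falls and 1 rise, that of Keap1. Nqo1, Prdx1 and Osgin1 were the genes gained against mCherryLow with median-of-ratios scaling, edgeR and DESeq2. Nfe2l2 against mCherryHigh was lost after quantile normalization, without DTC 1 and without mCherryHigh 5. Keap1 passed against mCherryHigh in one fit of all 9 libraries and without mCherryHigh 6 (4.69), and Txn1 after quantile normalization (1.05). The causes were not tested.

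Differences near 0 changed sign. For mCherryHigh against mCherryLow, leaving out single libraries gave -0.0766 to 0.128 for Nfe2l2, -0.319 to 0.874 for Hmox1, -0.123 to 0.0513 for Txnrd1, -0.0916 to 0.510 for Srxn1, -0.310 to 0.214 for Prdx1 and -0.223 to 0.233 for Osgin1. Nfe2l2 was -0.110 with median-of-ratios scaling, -0.0854 with edgeR and -0.0808 with DESeq2. Txnrd1 and Prdx1 were 0.0162 and 0.00952 after quantile normalization, and 0.106 and 0.429 without DTC 3, mCherryHigh 1 and mCherryLow 1, where Osgin1 was 0.0532. Osgin1 was 0.0599 on thinned reads and 0.147 with the code series as a term. For DTC against mCherryLow, Txn1 was -0.333 with median-of-ratios scaling, -0.497 with edgeR, -0.330 with DESeq2 and -0.0733 to 0.162 with single libraries left out. Same-numbered mCherryHigh and mCherryLow libraries deviated together with r = -0.20, -0.02 and 0.27, so the numbers were not taken as pairs, and the replicate block called 0 genes.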
